A study of Mus musculus with 6 samples.

Results

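The genes of sterol and fatty acid synthesis were followed by RNA sequencing in samples labelled as primary hepatic stellate cells of the mouse. There were 3 libraries titled flox and 3 titled Cre. Markers of other cell types were also high in them, as given below. Members were the rows of the raw count table whose symbol was on a list of 34 genes, and all 34 were found among the 22966 genes of the table and all 34 passed the filter on low counts. They comprise 17 sterol enzymes, 11 fatty acid enzymes and 6 genes that regulate or carry sterols. Each of the 6 libraries carries the genotype entry BucheHep and the treatment entry CCl4, carbon tetrachloride, a hepatotoxin that scars the liver on repeated use, so only the titles tell the groups apart. The series concerns loss of Buche, butyrylcholinesterase, in hepatocytes and its effect on stellate cells. The protocols name BucheΔHep mice on chow. Not given in the sources used here were the Cre driver, strain, age, dose of CCl4 and any cell sort, and neither is it stated that each library is a different mouse. The p-values therefore speak only of spread among these 6 libraries, part of which may be technical.

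Cholesterol is built in a long chain of steps from acetyl-CoA through mevalonate, squalene and lanosterol, mostly at the endoplasmic reticulum. Fatty acids are built in the cytosol from the same acetyl-CoA by acetyl-CoA carboxylase and fatty acid synthase, and are then elongated and desaturated. Many genes of both routes are targets of the SREBP transcription factors, which SCAP escorts to the Golgi for cleavage when sterols are low and which INSIG proteins retain when sterols are high. SREBP-2 is best known for the sterol enzymes and SREBP-1c, together with the liver X receptor, for the fatty acid enzymes. Stellate cells store retinyl esters in lipid droplets and lose these when they become myofibroblasts.

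Promoter windows are shown first, since SREBPs act there beside the factor NF-Y. RefSeq (GRCm38.p6) gave 36 promoters for 27 of the 34 members, and the 250 bases before each start were searched on both strands for a sterol response element type motif (TCACNCCAC), for the E-box palindrome (CACGTG) and for the NF-Y box (CCAAT). The NF-Y box was found before 14 of the 14 sterol enzyme genes with a promoter, or in 82.4% of their 17 promoters, and before 4 of 8 fatty acid enzyme genes, in 44.4% of their 9 promoters. Of all 32851 promoters of that length, 33.8% held it, and of the 11498 tested genes with a promoter, 40.1% did. The E-box was found before 3 of the 14 sterol and 1 of the 8 fatty acid enzyme genes, and before 9.51% of the tested genes with a promoter. The sterol response element type was found before 1 member, Hmgcs1, and before 1.17% of the tested genes with a promoter. In all promoters of that length the shares were 6.02% and 1.05%. A match is a description of the letters and not a binding site. Several windows overlap annotated UTR, by 250 bases for Tm7sf2, 214 for Msmo1 and, among the fatty acid enzymes, 243 for Fads2. A few windows are printed, 5′ to 3′ on the gene's strand, with matches in capitals. Hmgcs1 holds the sterol response element type match with 3 NF-Y boxes, and Sc5d holds an E-box with 1 NF-Y box and is the sterol enzyme nearest the threshold among those higher in Cre. Fasn and Elovl6 passed the test described below. In Fasn a forward and a reverse NF-Y box overlap by 2 bases, beside a further match. The Elovl6 window, from which 31 bases annotated as UTR were left off, holds none of these motifs.
Hmgcs1 (chr13:119690101-119690350, + strand): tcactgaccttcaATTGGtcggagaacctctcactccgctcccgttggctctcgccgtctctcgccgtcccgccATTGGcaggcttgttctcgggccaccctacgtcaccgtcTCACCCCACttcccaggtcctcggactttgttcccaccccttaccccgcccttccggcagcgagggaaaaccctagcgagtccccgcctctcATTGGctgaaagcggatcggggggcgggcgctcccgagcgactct
Sc5d (chr9:42264301-42264550, - strand): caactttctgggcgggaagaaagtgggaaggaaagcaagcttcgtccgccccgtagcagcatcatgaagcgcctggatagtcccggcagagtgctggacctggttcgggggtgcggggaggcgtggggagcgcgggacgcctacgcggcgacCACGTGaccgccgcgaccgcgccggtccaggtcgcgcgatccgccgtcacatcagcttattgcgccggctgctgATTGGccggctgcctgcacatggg
Fasn (chr11:120824548-120824797, - strand): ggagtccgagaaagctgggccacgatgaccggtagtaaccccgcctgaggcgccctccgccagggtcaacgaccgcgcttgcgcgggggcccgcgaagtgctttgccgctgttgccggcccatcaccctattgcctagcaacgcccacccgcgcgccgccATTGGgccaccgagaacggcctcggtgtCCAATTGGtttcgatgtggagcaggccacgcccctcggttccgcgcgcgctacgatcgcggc
Elovl6 (chr3:129532136-129532354, + strand): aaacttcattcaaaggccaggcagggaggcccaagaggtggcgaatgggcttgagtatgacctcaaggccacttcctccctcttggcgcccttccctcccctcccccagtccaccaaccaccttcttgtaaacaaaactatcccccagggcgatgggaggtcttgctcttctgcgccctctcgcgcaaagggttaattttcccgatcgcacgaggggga

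The libraries held 37273142 to 41006722 counts. The gene of butyrylcholinesterase, Bche, stood at -0.88 ± 0.80 (log2, Cre over flox, standard error) and was not called (edgeR adjusted p = 0.467), which does not check the titles, since the deletion is named for hepatocytes. Across the 14795 genes tested, 15.3% passed edgeR's quasi-likelihood test at an adjusted p below 0.05, 6.35% higher and 8.94% lower in Cre, and the groups did not overlap for 39.6%. Scaling to library totals moved the median log2 fold change of all genes from 0.01 to 0.17 and the share of calls that were higher from 41.5% to 57.0%. Flox 3 lay at -6.61 on the first principal component, while flox 1 and 2 were at -64.3 and -89.3 and Cre spanned 39.8 to 63.8. When flox 1, flox 2, Cre 1 or Cre 2 was dropped, edgeR called 0 genes and so 0 members, although 3562 to 3978 genes had an unadjusted p below 0.05. Without flox 3 edgeR called 5329 genes and without Cre 3 it called 1369, against 2263 with all 6 libraries. Calls of single genes gained without flox 3 are to be read against that general gain. These refits used edgeR alone. Of 16 macrophage markers 15 fell and 0 rose. In flox 1, 2 and 3 their levels summed to 20768, 26213 and 8821 CPM (counts scaled to library size), and in Cre 1, 2 and 3 to 2967, 3041 and 3511 CPM, without overlap. Of 17 stellate markers 2 rose and 0 fell, and their sums overlapped, at 1399.7 to 3189.9 CPM in flox and 2292 to 3729 CPM in Cre. The macrophage sum lay above the stellate sum in each flox library, at 26213 and 1862 CPM in flox 2. It also lay above in Cre 1, and below in Cre 2 and Cre 3. Endothelial marker sums ran from 1797 CPM in flox 2 to 4900.5 CPM in flox 3. Such sums are over different genes and do not give shares of cells. The matrix proteoglycan gene Dcn rose, with 370.2 to 459 CPM in flox and 713 to 1412 CPM in Cre (edgeR adjusted p = 0.0351), as did the transcription factor gene Hand2, with 3.66 to 7.30 CPM and 9.91 to 12.6 CPM (edgeR adjusted p = 0.0492). Acta2, the smooth muscle actin of myofibroblasts, had 40.4 to 82.4 CPM in flox and 89.5 CPM or more in each Cre library and was not called (edgeR adjusted p = 0.0696). Lrat, which makes retinyl esters, stood at 0.124 to 2.49 CPM in the 6 libraries, with a log2 fold change of -1.36 ± 1.07. Of the 17 stellate markers 11 lay above 0 and 6 below, Lrat and Des (-0.70 ± 0.43) among the latter. Of 10 mesothelial markers 9 were above 0, at a median log2 fold change of 1.41, with 5 at an unadjusted p below 0.05 in edgeR and 0 past its adjusted threshold. DESeq2 and limma-voom calls were not counted for the marker lists. Their sums were 271, 183 and 241 CPM for flox 1, 2 and 3 and 716, 851 and 204 CPM for Cre 1, 2 and 3, high in Cre 1 and Cre 2 alone. Against the mean of flox 1 and flox 2, flox 3 was higher for 12 of 13 hepatocyte markers, at a median of 1.52 on the log2 scale, and for 9 of 12 endothelial markers, at a median of 0.97, and lower for all 16 macrophage markers, at a median of -1.57. In bulk samples, fewer cells of a type and less RNA per cell cannot be told apart. The level of a gene is that of the whole sample and not of stellate cells alone.

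Of the 34 members 4 rose and 1 fell in Cre, or 14.7%, a share close to the 15.3% of all genes tested. Each Cre library lay above each flox library for 9 members and below for 2, or 32.4% together, against 19.6% above, 20% below and 39.6% together over all genes. The calls were uneven between the enzyme lists. Of the 11 fatty acid enzymes 4 rose and 0 fell, 36.4% of the list against 6.35% of all genes tested that were called higher. They were Acaca, Fasn, Elovl6 and Fads2, by 1.40 to 2.85 times. The groups did not overlap for 6 of the 11, or 54.5%. The median log2 fold change of the 11 was 0.06, beside 0.01 over all genes, and the other 7 lay on both sides of 0. Macrophage markers were lower in Cre, and mesothelial markers were higher in Cre 1 and Cre 2 and not in Cre 3. The part of either in these changes was not tested.

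**Figure D1:**
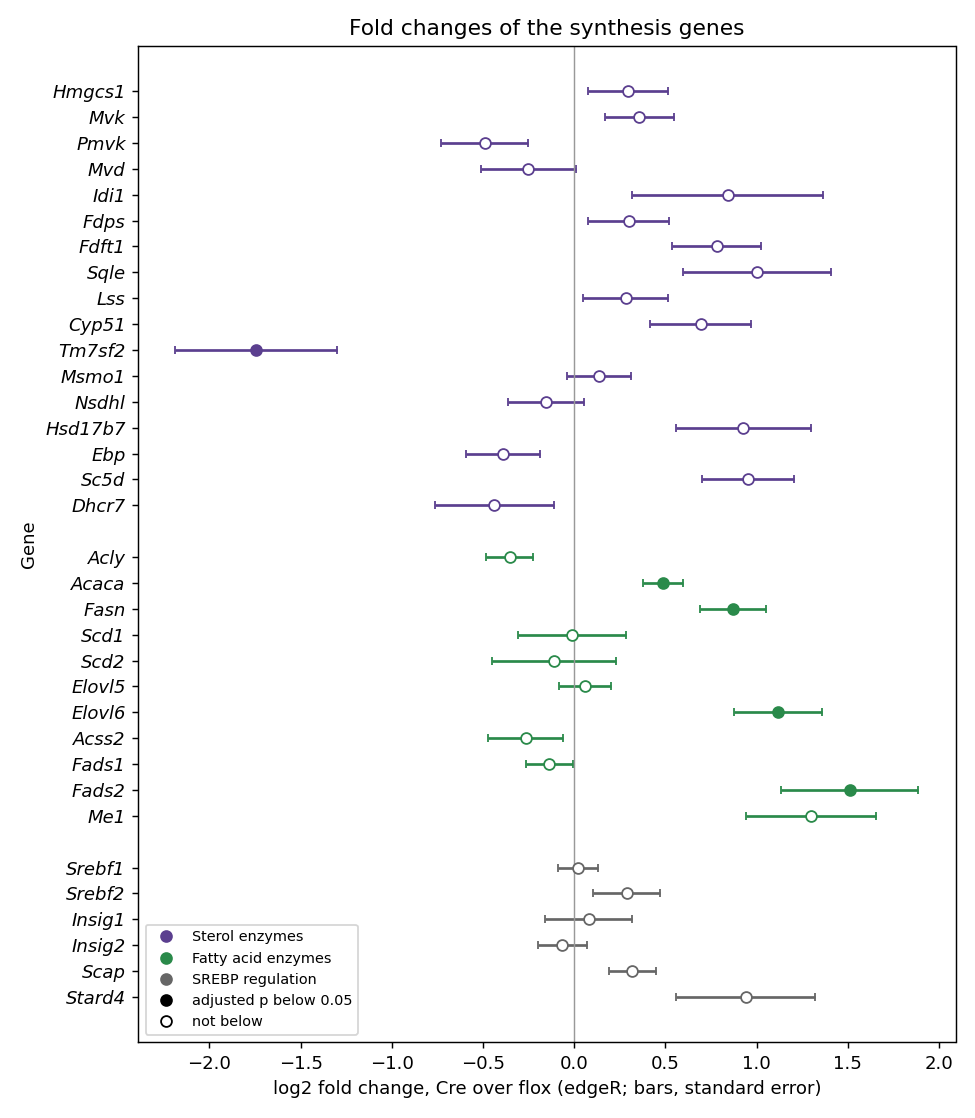
Log2 fold change of each of the 34 genes, Cre over flox (x axis), with its edgeR standard error as the bar and the genes in pathway order (y axis). Filled points passed the test, namely Acaca, Fasn, Elovl6 and Fads2 to the right of 0 and Tm7sf2 at -1.74 to the left.

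Fasn encodes fatty acid synthase, the multienzyme that makes palmitate (chromosome 11, 120805846 to 120824547, GRCm38). It stood at 103, 87.6 and 133 CPM in flox 1, 2 and 3 and at 211, 212 and 169.7 CPM in Cre 1, 2 and 3. All Cre libraries were above all flox libraries, and flox 3 was the nearest to them. The log2 of the Cre to flox ratio was 0.87 with a standard error of 0.18, the error given after each such value from here on (n = 3 and 3, edgeR adjusted p = 0.0301). Acaca encodes acetyl-CoA carboxylase, which makes the malonyl-CoA that Fasn uses (chromosome 11, 84129672 to 84401651). It had 51.7, 49.4 and 46.1 CPM in flox 1, 2 and 3 and 73.9, 70.4 and 62.1 CPM in Cre 1, 2 and 3, giving 0.49 ± 0.11 on the log2 scale (edgeR adjusted p = 0.0347). It was the smallest of the 4 rises and had the smallest standard error of them.

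Elovl6, the elongase that extends palmitate (chromosome 3, 129532355 to 129638495), stood at 7.22, 6.64 and 7.86 CPM in flox 1, 2 and 3. In Cre 1, 2 and 3 it stood at 16.4, 19.7 and 10.96 CPM, giving 1.12 ± 0.24 on the log2 scale (edgeR adjusted p = 0.0326). The flox values were close together and Cre 3 lay nearest to them. Exons of Elovl6 overlap those of the predicted antisense gene Gm35986. Fads2, the desaturase that starts the making of long polyunsaturated fatty acids (chromosome 19, 10062765 to 10101746), stood at 19.5, 10.7 and 23.3 CPM in flox 1, 2 and 3 and 48.9, 71.2 and 32.5 CPM in Cre 1, 2 and 3. Its log2 fold change of 1.51 ± 0.38 was the highest of the 34 genes (edgeR adjusted p = 0.0433), and Cre 2 was the highest library. Each of the 4 calls was kept without flox 3 and without Cre 3. In limma-voom, Fasn and Acaca passed (adjusted p = 0.0392 and 0.0468) and Elovl6 and Fads2 did not (adjusted p = 0.0583 and 0.0597).

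Me1, the cytosolic malic enzyme that supplies NADPH for fatty acid synthesis, had 20.8, 15.9 and 43.5 CPM in flox 1, 2 and 3 and 67.4, 64.9 and 65.0 CPM in Cre 1, 2 and 3. The groups did not overlap and flox 3 lay between the other flox libraries and Cre. The log2 fold change of 1.30 ± 0.36 missed the threshold in edgeR (adjusted p = 0.0549). DESeq2 called it (adjusted p = 0.00527), as did limma-voom (adjusted p = 0.0468) and edgeR without flox 3, at 1.84 (adjusted p = 0.000774). The macrophage sum of flox 3 also lay between those of the other flox libraries and of Cre, and flox 3 had the highest hepatocyte and endothelial sums of the 6 libraries, 946 and 4900.5 CPM. Their part in the value of flox 3 was not tested. An uncharacterised gene on the other strand overlaps exons of Me1.

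Acly, ATP citrate lyase, which supplies cytosolic acetyl-CoA to both routes, lay on the other side. It had 248, 257 and 195 CPM in flox 1, 2 and 3 and 179, 187 and 181 CPM in Cre 1, 2 and 3, each Cre library below each flox library. Its value of -0.35 ± 0.13 missed the threshold (edgeR adjusted p = 0.107). Without flox 3 it was -0.47 (edgeR adjusted p = 0.00831). Acss2, which makes acetyl-CoA from acetate, stood at -0.27 ± 0.20 with overlapping groups, and its exons overlap those of Ggt7, Gss and an antisense transcript.

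The other desaturases and the elongase Elovl5 did not pass. Scd1 and Scd2, which place the first double bond into saturated fatty acids, stood at -0.01 ± 0.30 and -0.11 ± 0.34 on the log2 scale, and both changed sign with library totals, to 0.16 and 0.065. Scd1 had 49.5, 53.0 and 36.8 CPM in flox 1, 2 and 3 and 53.7, 57.2 and 27.1 CPM in Cre 1, 2 and 3. Scd2 had 122, 119 and 67.0 CPM in flox 1, 2 and 3 and 95.1, 131 and 58.4 CPM in Cre 1, 2 and 3. For both genes the replicate titled 3 was the lowest of its group in flox and in Cre, and the groups overlapped. They are close paralogs, so reads may be split between them. Fads1, the desaturase that follows Fads2 in the polyunsaturated route and lies near it on chromosome 19, stood at -0.14 ± 0.13, or 0.027 with library totals, with values of 107 to 138 CPM in flox and 103 to 122 CPM in Cre. Elovl5, which lengthens polyunsaturated fatty acids, stood at 0.06 ± 0.14, with 54.6 to 69.5 CPM in flox and 58.0 to 73.2 CPM in Cre.

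The sterol enzymes gave fewer calls. Of the 17, 0 were called higher and 1 was called lower, or 0% and 5.88%, against 6.35% and 8.94% of all genes tested. At an unadjusted p below 0.05 in edgeR there were 5 higher and 1 lower. Together these are 6 of 17, a share near the 34.8% of all genes tested. By direction, the 14795 genes tested held 2424 higher and 2726 lower at that level. The 11 fatty acid enzymes likewise held 5 higher and 1 lower. DESeq2 called 2 of the 17 higher, and 1976 of all 14795 genes. In limma-voom 0 of the 17 were called higher, and 578 of all genes. The median log2 fold change was 0.30, with 11 above 0 and 6 below. The groups did not overlap for 5 of the 17, or 29.4%, against 39.6% of all genes tested. Without Cre 2 the median was 0.037. Without flox 3 the count of calls was 8 of 17, while over all genes it rose from 2263 to 5329. That refit tested more genes than the 14795 of the main fit, so 5329 is not to be read as a share of 14795. Whether the sterol enzymes gained more calls than genes in general was not tested. Of the 8, Fdft1, Sqle, Hsd17b7 and Sc5d were higher and Pmvk, Tm7sf2, Ebp and Dhcr7 lower.

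**Figure D2:**
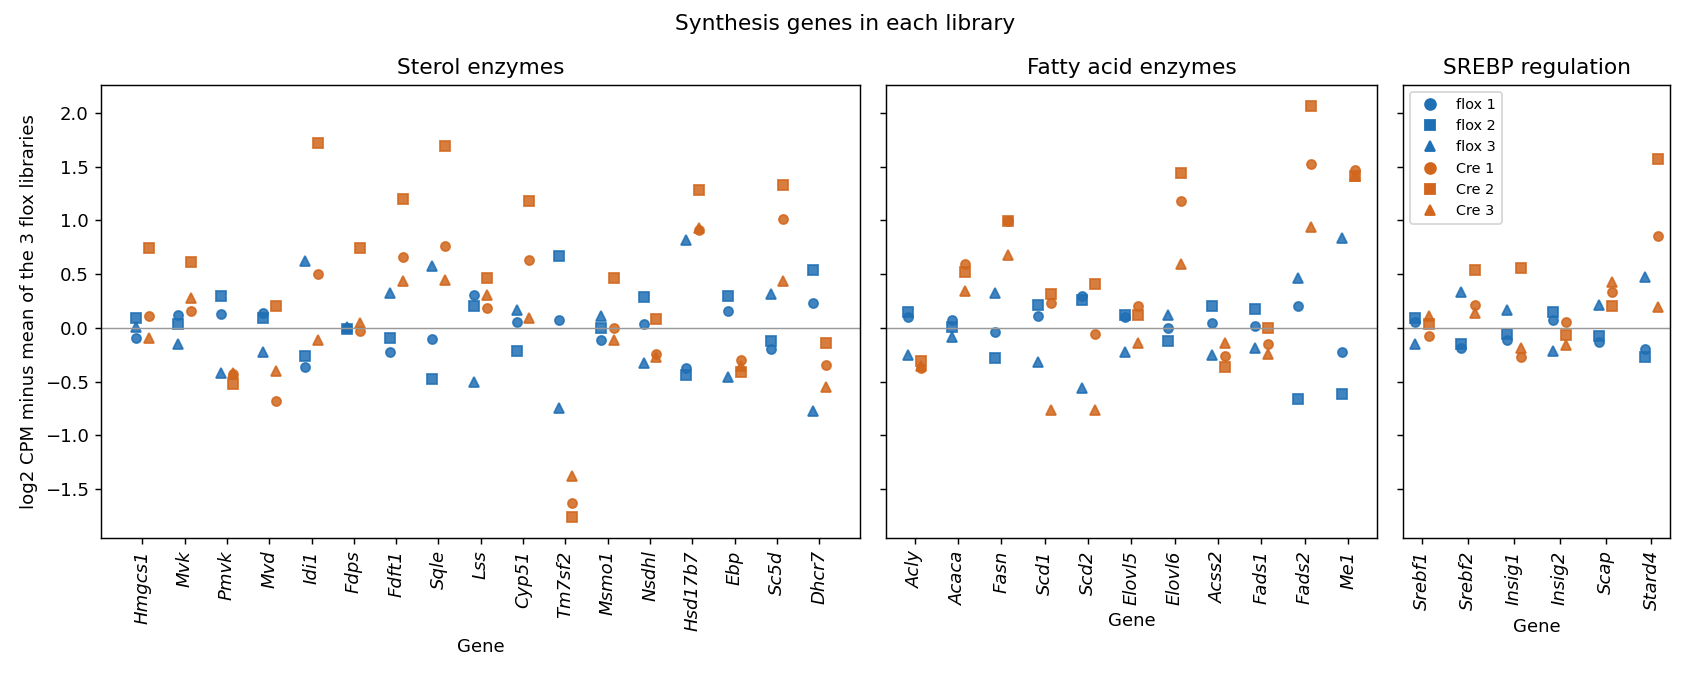
Level of each gene in each of the 6 libraries (y axis, log2 CPM minus the mean of the 3 flox libraries), by gene in 3 panels for the sterol enzymes, the fatty acid enzymes and the SREBP regulation genes. Blue marks are flox and orange marks Cre, with circles, squares and triangles for replicates 1, 2 and 3. The orange square, Cre 2, is the highest of the 6 for 12 of the 17 sterol enzymes.

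The first steps, from acetyl-CoA to farnesyl diphosphate, held no call among 6 enzymes, with a median of 0.30. Hmgcs1, which makes HMG-CoA, had 50.2, 56.8 and 53.6 CPM in flox 1, 2 and 3 and 57.6, 89.4 and 50.1 CPM in Cre 1, 2 and 3, giving 0.30 ± 0.22 on the log2 scale (edgeR adjusted p = 0.375). Cre 2 alone stood clear of the flox libraries. Fdps, farnesyl diphosphate synthase, also stood clear in Cre 2 alone, with 22.6, 22.3 and 22.7 CPM in flox 1, 2 and 3 and 22.1, 37.8 and 23.3 CPM in Cre 1, 2 and 3. Without Cre 2 the log2 fold changes of Hmgcs1 and Fdps went from 0.30 and 0.30 to 0.035 and 0.037.

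Idi1, the isomerase that makes dimethylallyl diphosphate, had 4.41, 4.71 and 8.78 CPM in flox 1, 2 and 3 and 8.03, 18.8 and 5.23 CPM in Cre 1, 2 and 3. Its log2 fold change of 0.84 ± 0.52 became 0.17 without Cre 2. Mvk, mevalonate kinase, stood at 0.36 ± 0.19 (edgeR adjusted p = 0.228), with 7.89 to 9.51 CPM in flox and 9.76 to 13.4 CPM in Cre, so its groups did not overlap. Pmvk, phosphomevalonate kinase, and Mvd, the decarboxylase after it, lay below 0 at -0.49 ± 0.24 and -0.25 ± 0.26, with overlapping groups. Predicted antisense genes overlap exons of Hmgcs1 and Idi1, and a further predicted gene those of Fdps.

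The steps from squalene to lanosterol lay above 0 for all 3 enzymes, and none passed. Fdft1, squalene synthase, had 16.2, 17.7 and 23.6 CPM in flox 1, 2 and 3 and 29.9, 43.4 and 25.5 CPM in Cre 1, 2 and 3. Its groups did not overlap, and the log2 fold change of 0.78 ± 0.24 passed in DESeq2 (adjusted p = 0.0228) but not in edgeR (adjusted p = 0.0735). Its exons overlap on the other strand those of Ctsb, the gene of the lysosomal protease cathepsin B, and without strand reads of the pair cannot be told apart. Sqle, squalene epoxidase, a rate-limiting step of the later pathway, had 8.69, 6.70 and 13.9 CPM in flox 1, 2 and 3 and 15.9, 30.2 and 12.7 CPM in Cre 1, 2 and 3. It stood at 1.004 ± 0.41 (edgeR adjusted p = 0.133) and 0.57 without Cre 2. Lss, lanosterol synthase, stood at 0.28 ± 0.23, with flox 3 the lowest library at 9.92 CPM. An uncharacterised gene on the other strand overlaps its exons.

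The steps from lanosterol to cholesterol went both ways, with 4 of 8 enzymes above 0 and 4 below. Sc5d, the sterol desaturase, had an adjusted p just over the threshold. It had 24.9, 26.2 and 35.4 CPM in flox 1, 2 and 3 and 57.6, 71.5 and 38.5 CPM in Cre 1, 2 and 3, each Cre library above each flox library. The log2 fold change was 0.95 ± 0.25 (edgeR adjusted p = 0.0501), and it passed in DESeq2 (adjusted p = 0.00618) but not in limma-voom (adjusted p = 0.0705). Hsd17b7, a ketosteroid reductase of the pathway, had 5.88, 5.60 and 13.5 CPM in flox 1, 2 and 3 and 14.3, 18.6 and 14.6 CPM in Cre 1, 2 and 3, giving 0.93 ± 0.37 on the log2 scale (edgeR adjusted p = 0.127). Flox 3 stood beside the Cre libraries, and without it the log2 fold change was 1.47 (edgeR adjusted p = 0.00351). Cyp51, the lanosterol demethylase, stood at 0.69 ± 0.28 (edgeR adjusted p = 0.128), with 19.0 to 24.7 CPM in flox and 34.04, 49.9 and 23.5 CPM in Cre 1, 2 and 3. Exons of Cyp51 overlap those of Akap9 on the other strand.

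Tm7sf2, a sterol reductase, was the 1 sterol enzyme that fell (chromosome 19, 6062821 to 6068373). Its raw counts were 113, 157 and 67 in the flox libraries, by replicate, and 35, 33 and 43 in the Cre libraries. These are 2.97, 4.51 and 1.67 CPM and 0.876, 0.796 and 1.05 CPM, with each Cre library below each flox library. The log2 fold change of -1.74 ± 0.44 passed in edgeR (adjusted p = 0.0452) and DESeq2 (adjusted p = 0.00151) and not in limma-voom (adjusted p = 0.0811). Its order over the flox libraries, highest in flox 2 and lowest in flox 3, was that of the macrophage sum, an order shared by 12 of the 34 members, called or not, and by 29.5% of all genes tested. Its exons overlap those of Vps51 on the same strand, so its reads may be shared. The call was not kept without Cre 3.

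Of the remaining enzymes of these steps, Dhcr7, the reductase of the last step to cholesterol, had 27.6, 34.1 and 13.7 CPM in flox 1, 2 and 3 and 18.4, 21.2 and 16.0 CPM in Cre 1, 2 and 3. Its value of -0.44 ± 0.33 was not called, but became -0.73 without flox 3 (edgeR adjusted p = 0.0202). Ebp, the sterol isomerase, had 35.9, 39.5 and 23.4 CPM in flox 1, 2 and 3 and 26.2, 24.1 and 25.1 CPM in Cre 1, 2 and 3, giving -0.39 ± 0.20 on the log2 scale. For both, flox 3 was the lowest of the 6 libraries and the other flox libraries were the highest. Msmo1, the sterol methyl oxidase, at 0.14 ± 0.18, and Nsdhl, a sterol dehydrogenase, at -0.16 ± 0.21, had overlapping groups, and Nsdhl was at 0.013 with library totals.

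None of the 6 genes of SREBP regulation and sterol transport passed in edgeR, DESeq2 or limma-voom, and the groups overlapped for each. At an unadjusted p below 0.05 in edgeR there were 2 higher and 0 lower, near the 34.8% of all genes in either direction. Srebf1, which encodes the SREBP-1 proteins, stood at 65.9 to 77.7 CPM in flox and 69.5 to 78.7 CPM in Cre, giving 0.02 ± 0.11 on the log2 scale (edgeR adjusted p = 0.906). Gene counts do not separate its isoforms, and its exons overlap those of Rai1 on the other strand. Srebf2, which encodes SREBP-2, had 83.2, 85.3 and 119 CPM in flox 1, 2 and 3 and 109.5, 138 and 104 CPM in Cre 1, 2 and 3, giving 0.29 ± 0.18 on the log2 scale. Without flox 3 it was 0.48 (edgeR adjusted p = 0.0430).

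Scap, the escort protein, stood at 0.32 ± 0.13 (edgeR adjusted p = 0.131), with 69.9 to 88.6 CPM in flox and 88.4 to 103 CPM in Cre, where flox 3 at 88.6 CPM and Cre 2 at 88.4 CPM overlapped. Without flox 3 it was 0.43 (edgeR adjusted p = 0.0208). Insig1, a retention protein that is itself an SREBP target, had 30.2, 31.4 and 36.7 CPM in flox 1, 2 and 3 and 27.1, 48.1 and 28.7 CPM in Cre 1, 2 and 3. Its log2 fold change of 0.08 ± 0.24 became -0.21 without Cre 2. Insig2, its paralog, stood at -0.06 ± 0.14, or 0.10 with library totals. Stard4, which carries cholesterol between membranes, had 11.9, 11.4 and 19.1 CPM in flox 1, 2 and 3 and 24.9, 40.9 and 15.7 CPM in Cre 1, 2 and 3, giving 0.94 ± 0.38 on the log2 scale (edgeR adjusted p = 0.133), and 0.54 without Cre 2.

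Cre 2 was the library in which most members were highest. It ranked first of 6 for 20 of the 34 members, with 12 of them among the 17 sterol enzymes and 5 among the 11 fatty acid enzymes. Against the mean of Cre 1 and Cre 3, Cre 2 was higher for 14 of 17 sterol enzymes, at a median of 0.52 on the log2 scale, and for 9 of 11 fatty acid enzymes, at a median of 0.16. Over all genes tested 49.6% were higher in Cre 2, at a median of -0.0022. Among the members the largest such differences were those of Idi1 at 1.53, Sqle at 1.09, Stard4 at 1.05, Fads2 at 0.84 and Cyp51 at 0.82. Acaca at 0.056, Acly at 0.055, Fasn at 0.16 and Me1 at -0.029 differed little by this measure. Cre 2 also had higher levels than that mean for all 10 mesothelial and all 12 endothelial markers, at medians of 1.33 and 0.99, and lower levels for 12 of 13 hepatocyte markers, at a median of -1.63. The part of these cell types in the values of Cre 2 was not tested.

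**Figure D3:**
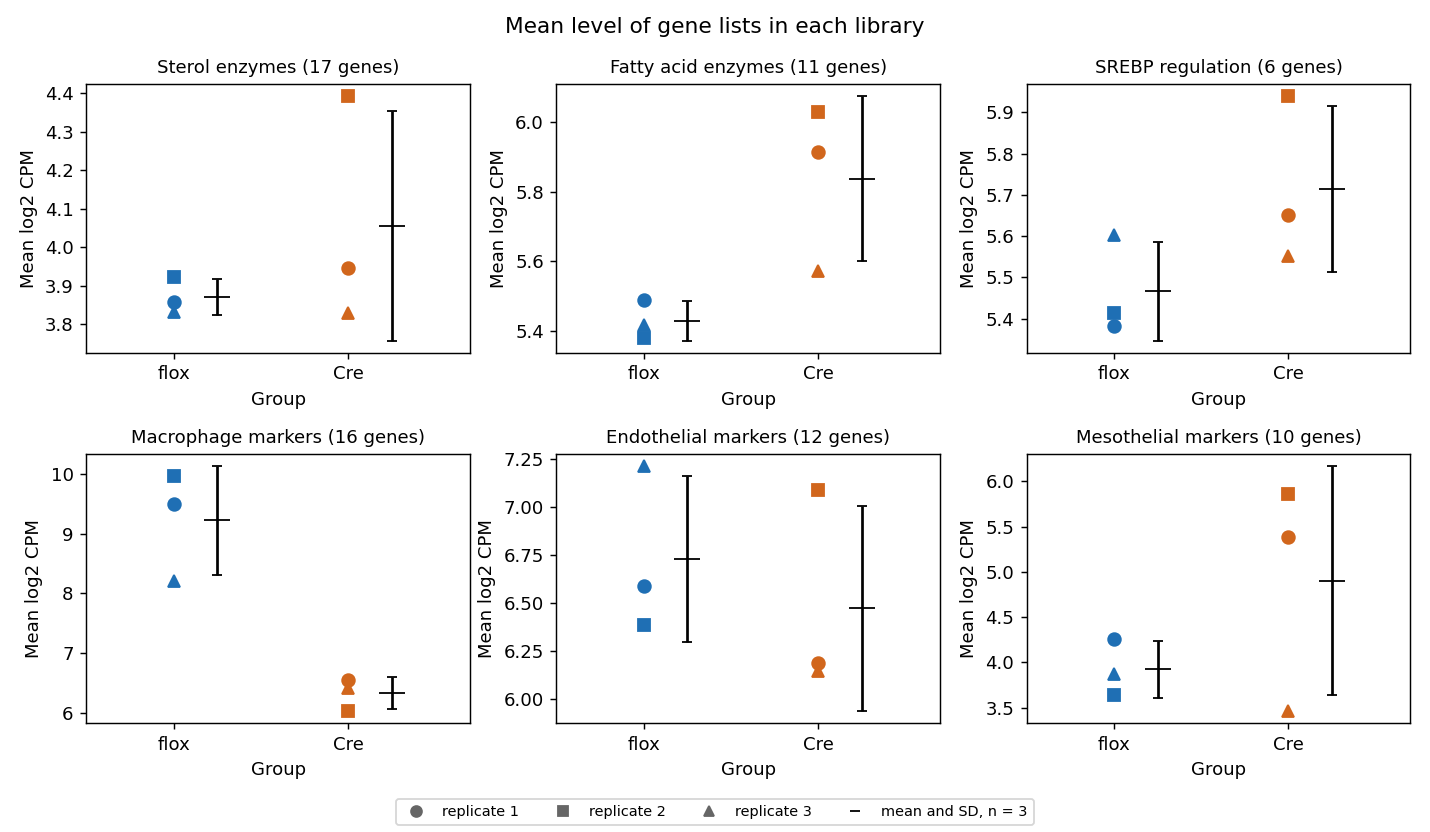
Mean log2 CPM of the genes of 6 lists (y axis) in each flox and Cre library (x axis), with circles, squares and triangles for replicates 1, 2 and 3 and bars for the mean and SD of 3 libraries. The y axes differ and do not start at 0. Means of the sterol enzymes are level but for Cre 2 at 4.39. Means of the fatty acid enzymes do not overlap between the groups, while their medians and summed levels do. Macrophage markers are lower in each Cre library.

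Set side by side, the lists differed in which libraries stood out. The mean log2 CPM of the sterol enzymes came to 3.86, 3.92 and 3.83 for flox 1, 2 and 3 and to 3.95, 4.39 and 3.83 for Cre 1, 2 and 3. Cre 3 was thus as low as the lowest flox library. The mean of the fatty acid enzymes came to 5.49, 5.38 and 5.42 for flox 1, 2 and 3 and to 5.91, 6.03 and 5.57 for Cre 1, 2 and 3, and the Cre libraries were all above the flox ones. Within a library, the sterol mean minus the fatty acid mean came to -1.63, -1.46 and -1.58 for flox 1, 2 and 3 and to -1.97, -1.64 and -1.74 for Cre 1, 2 and 3. Flox 1 and Cre 2 almost touched. Medians and summed levels did not separate the groups. The fatty acid enzymes summed to 821, 814 and 720 CPM in flox 1, 2 and 3 and to 935, 1010 and 774 CPM in Cre 1, 2 and 3. The median departure from the flox mean was 0.11, 0.61 and -0.09 in Cre 1, 2 and 3 for the sterol enzymes and 0.23, 0.41 and -0.14 for the fatty acid enzymes. These are descriptions of lists chosen with results known, and the difference between the lists was not tested.

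Levels were compared between genes per length, as the deposited FPKM, which are scaled to gene length and library total, averaged over the 6 libraries. The members ranged from 1.28 FPKM for Tm7sf2 to 32.9 for Fads1, with medians of 5.75 FPKM for the sterol enzymes, 13.04 for the fatty acid enzymes and 13.9 for the regulation genes, beside 6.04 over all genes tested. Fads1, Acly at 26.3 FPKM and Elovl5 at 20.7 FPKM were the highest. In flox, Fads1 at 32.6 ± 2.41 FPKM (SD, n = 3) and Acly at 28.0 ± 2.57 differed by less than the sum of their SDs, while Elovl5 stood lower at 19.1 ± 1.48. In Cre, Fads1 at 33.2 ± 3.09 FPKM (SD, n = 3) stood above Acly at 24.5 ± 0.626 by more than the sum of their SDs, and Acly and Elovl5 at 22.3 ± 2.98 differed by less than theirs. The highest sterol enzymes were Fdps at 17.3 FPKM and Ebp at 16.5, which lay within the sum of their SDs in each group, and then Hmgcs1 at 14.3 and Msmo1 at 14.02. At the low end Pmvk at 1.93, Elovl6 at 1.97, Hsd17b7 at 2.18, Lss at 2.34 and Acss2 at 2.36 FPKM followed Tm7sf2.

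**Figure D4:**
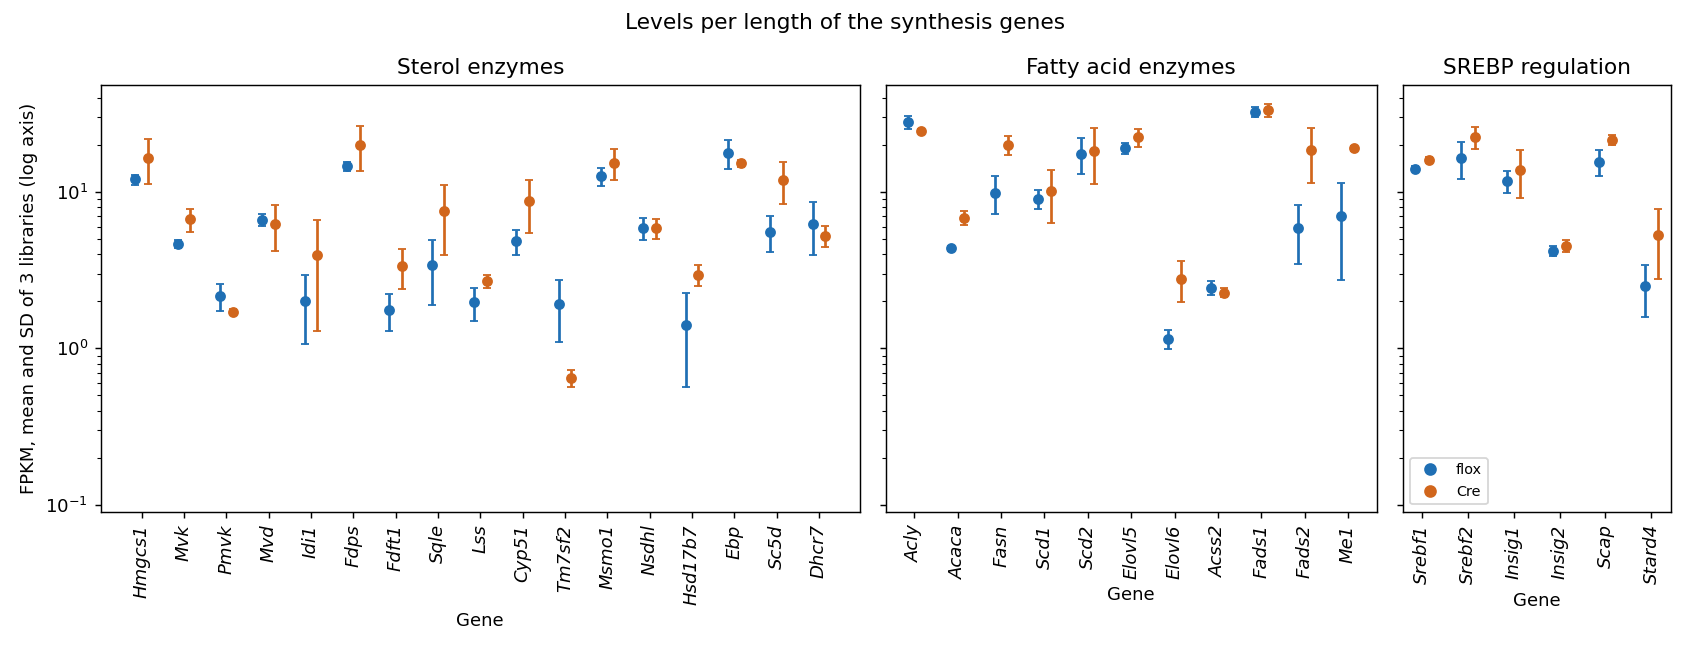
FPKM of each of the 34 genes (y axis, log scale) as the mean and SD of 3 flox and 3 Cre libraries, by gene in 3 panels. The deposited FPKM carry no composition scaling, so small differences between the groups, as for Srebf1, are not those of the scaled test. Fads1 at 32.9 FPKM over all libraries is the highest and Tm7sf2 at 1.28 the lowest.

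Lists of neighbouring genes were read from the same fit. Of 16 tested genes of sterol supply outside the members, 1 rose and 1 fell, together 12.5%, a share near the 15.3% of all genes tested. Acat2, which makes the acetoacetyl-CoA used by Hmgcs1, had 9.27, 6.29 and 7.98 CPM in flox 1, 2 and 3 and 13.7, 14.9 and 12.1 CPM in Cre 1, 2 and 3, giving 0.79 ± 0.20 on the log2 scale (edgeR adjusted p = 0.0445). Mylip, a ubiquitin ligase that removes the LDL receptor, fell, with 68.8 to 88.0 CPM in flox and 36.1 to 43.0 CPM in Cre, giving -0.99 ± 0.13 on the log2 scale (edgeR adjusted p = 0.0237). Npc1, which moves cholesterol out of lysosomes, stood at -0.80 ± 0.21 (edgeR adjusted p = 0.0509). Mylip and Npc1 had the order of the macrophage sum over the flox libraries, as did 25% of this list and 29.5% of all genes tested.

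Of 11 tested genes of the liver X receptor and oxysterol list, 6 fell and 1 rose. These are 54.5% and 9.09%, against 8.94% and 6.35% of all genes tested. The median of the 11 was -1.66. Those that fell were Nr1h3, the gene of the receptor LXR-alpha, at -2.54 ± 0.37, the cholesterol exporter Abcg1 at -1.66 ± 0.35, the apolipoprotein genes Apoe at -2.28 ± 0.53 and Apoc1 at -3.08 ± 0.54, the phospholipid transfer protein Pltp at -2.66 ± 0.42 and the sterol hydroxylase Cyp27a1 at -2.21 ± 0.54. Nr1h3 had 222, 264 and 126 CPM in flox 1, 2 and 3 and 37.1, 21.7 and 46.3 CPM in Cre 1, 2 and 3. Macrophages also express these genes, and their order over the flox libraries, highest in flox 2 and lowest in flox 3, was that of the macrophage sum. That order was found for 63.6% of this list and 29.5% of all genes tested. The part of macrophage RNA was not tested. Ch25h, which makes an oxysterol that holds SREBPs back, rose, from 24.3, 12.9 and 30.0 CPM in flox 1, 2 and 3 to 76.0, 59.9 and 123.4 CPM in Cre 1, 2 and 3 (1.95 ± 0.39, edgeR adjusted p = 0.0273).

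Of 23 tested lipogenic genes outside the members, 2 rose and 1 fell, together 13%, a share near the 15.3% of all genes tested. Acsl4, which activates polyunsaturated fatty acids, rose from 175, 195 and 205 CPM in flox 1, 2 and 3 to 352, 343 and 275 CPM in Cre 1, 2 and 3, giving 0.75 ± 0.13 on the log2 scale (edgeR adjusted p = 0.0250). Gpam, which takes the first step of triglyceride synthesis, stood at 25.5 to 30.0 CPM in flox and 37.9 to 49.8 CPM in Cre, giving 0.71 ± 0.14 on the log2 scale (edgeR adjusted p = 0.0274). Idh1, a cytosolic dehydrogenase that supplies NADPH, fell, with 180.0, 252 and 119 CPM in flox 1, 2 and 3 and 71.0, 91.0 and 74.2 CPM in Cre 1, 2 and 3 (-1.22 ± 0.27, edgeR adjusted p = 0.0346). Its flox libraries had the order of the macrophage sum as well, an order found for 17.4% of this list and 29.5% of all genes tested. Of 8 adipocyte markers 5 were in the table and 2 passed the filter, and Adipoq had 0 counts throughout. A count of 0 allows a level of up to 3 counts, which is 0.0732 to 0.0805 CPM by library, counting error only.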

How the data were processed

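The authors deposited raw counts per gene symbol (22966 genes, 0 rows without a gene name) and FPKM values, 1 column per library, and 0 per-sample columns were left unused. Genome builds in the submitters' processing notes are GRCm38, mm10 and hg38, without saying which served what. Which aligner and counter were used, and whether counting used strand, was not given in the sources used here. Among 11560 genes above 50 counts throughout, the deposited FPKM were proportional to the count over the library total, with 0 genes departing by over 1e-06, so they carry no composition factor.

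Counts were filtered with filterByExpr (minimum count 10, minimum total 15), which kept 14795 genes and removed 8171, scaled by TMM and tested with edgeR 4.0.16 in R 4.3.3 (quasi-likelihood F-test, two-sided, no covariate). P-values were adjusted by Benjamini-Hochberg over all genes tested, and a gene was called at an adjusted p below 0.05. Fold changes (log2, Cre relative to flox) carry a standard error derived from the F statistic, the size of the fold change over the root of F. CPM are TMM-scaled, and list means use log2 CPM with a prior count of 2. With 3 libraries against 3 the smallest exact permutation p is 0.10, and such tests were not used. Groups and replicate numbers come from the titles. The members and lists were chosen with earlier results of these data known, so no list was tested. All members are named, and of each neighbouring list the genes past the threshold and the 3 of lowest p. Alternatives changed the scaling, the filter, the tool (limma 3.58.1, DESeq2 1.42.0) or the unit (log2 of FPKM plus a pseudocount), added a replicate block or left out each library in turn. Gene positions and overlaps are from GENCODE on GRCm38. The fits were tested on simulated data with known changes. The simulation held no shift in cell types between libraries, so it does not speak to such shifts.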

Additional observations from a re-analysis of the deposited data

How the results depend on the processing

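Beside the 2263 genes and 5 members called, DESeq2 called 4334 and 8, limma-voom 1404 and 3, limma-trend on log2(FPKM + 0.1) 931 and 0, and limma-trend on log2(FPKM + 1) 0 and 0. The sterol enzymes, with 1 call, had 2 with library totals, 3 in DESeq2, 0 in limma-voom, 2 without a count filter, 2 at 1 CPM or more, and 0 on either FPKM scale over all genes. The fatty acid enzymes, with 4 calls, had 0 and 0 on those FPKM scales. They had 3 to 5 under the other alternatives that kept all libraries, except the replicate block. The other sterol supply genes, with 2 calls, had 5 in DESeq2, 1 in limma-voom, and 0 and 1 on log2(FPKM + 1) and log2(FPKM + 0.1). The liver X receptor list, with 7, had 0 and 4 on these scales. The other lipogenic genes, with 3, had 6 with library totals, 11 in DESeq2, 0 on log2(FPKM + 1) and 7 on log2(FPKM + 1) at a mean FPKM of at least 1. The median of all genes was 0.17 with library totals and 0.14 at a mean FPKM of at least 1.

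Same-numbered flox and Cre libraries did not deviate together (correlations over genes of -0.0328, -0.105 and -0.0556, beside -0.0311 to 0.0997 for other pairs). With deviations taken within 3 libraries, these values cannot tell whether the numbers pair the libraries. A replicate block left 0 calls over all genes, among the members and in each list, with 4296 genes at an unadjusted p below 0.05 in edgeR.

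With 1 library left out, calls ran from 0 to 5329 over all genes, 0 to 16 members, 0 to 8 sterol enzymes, 0 to 6 fatty acid enzymes, 0 to 2 SREBP regulation genes, and 0 to 8, 0 to 8 and 0 to 8 in the sterol supply, liver X receptor and other lipogenic lists. The highest were those without flox 3. Median log2 fold changes ran from 0.037 to 0.42 for the sterol enzymes, -0.040 to 0.28 for the fatty acid enzymes, 0.11 to 0.30 for the regulation genes and 0.02 to 0.04 for all genes. The cause of these changes was not tested.

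Among genes named, the sign turned for 5 uncalled members with library totals, log2(FPKM + 1), log2(FPKM + 0.1) and log2(FPKM + 1) at a mean FPKM of at least 1: Nsdhl (0.013, 0.013, 0.015 and 0.013), Scd1 (0.16, 0.086, 0.087 and 0.086, and 0.014 without a count filter), Scd2 (0.065, 0.022, 0.021 and 0.022), Fads1 (0.027, 0.025, 0.026 and 0.025) and Insig2 (0.10, 0.081, 0.10 and 0.081). With 1 library left out the log2 fold change spanned 0 for Msmo1 (-0.033 to 0.27), Nsdhl (-0.30 to 0.017), Scd1 (-0.17 to 0.28), Scd2 (-0.38 to 0.17), Elovl5 (-0.040 to 0.18), Srebf1 (-0.044 to 0.093), Insig1 (-0.21 to 0.25) and Insig2 (-0.16 to 0.025). No called gene changed sign among the members and neighbouring genes named. The alternatives were not read for single marker genes.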
